A study of Canis lupus familiaris with 42 samples.

Results

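The genes described here encode the nuclear subunits of the mitochondrial respiratory chain and of ATP synthase. They are all genes whose symbol in the platform annotation begins with NDUFA, NDUFB, NDUFC, NDUFS, NDUFV, UQCR, COX4, COX5, COX6, COX7, COX8 or ATP5, with SDHA, SDHB, SDHC and SDHD added and the assembly factors named NDUFAF left out. Of 15115 genes named on the array, 63 met this rule. There were 33 genes of complex I, 4 of complex II, 7 of complex III, 7 of complex IV and 10 of complex V, and NDUFA4 and NDUFA4L2 were kept apart as a pair because NDUFA4, first assigned to complex I, is now placed with complex IV. ATP5IF1, an inhibitor of ATP synthase, and COX7A2L, a factor that joins complexes III and IV into larger assemblies, met the rule by their symbols although they are no catalytic subunits.

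RNA came from sarcomas that had arisen in dogs, not from cell lines or grafts, and was measured on Affymetrix canine arrays. Each of 21 tumours gave 1 array before treatment (label "none") and 1 array after the first hyperthermia session, a heat treatment given beside radiotherapy. The series describes 22 tumours, of which 21 were analysed here under the numbers 1 to 21. The labels state neither when the second sample was taken nor whether radiation had been given by then, and no untreated tumour was sampled again. Nothing in the labels ties each tumour to its own dog, and p-values therefore measure only how far these 21 tumours spread.

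Oxidative phosphorylation makes most of the ATP of resting cells. Complexes I and II take electrons from NADH and succinate, coenzyme Q carries them to complex III, cytochrome c carries them on to complex IV, where oxygen is reduced, and the protons pumped on the way drive ATP synthase, complex V. Complex II is also an enzyme of the citric acid cycle, and many tumours keep a working chain while they also ferment glucose to lactate.

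Values are log2 levels made by RMA, which corrects background, normalises between arrays and combines the probes of a probe set, so a difference of 1 is a doubling. For each gene the probe set with the highest mean over all 42 arrays was used, and levels of different subunits, which depend on how well each probe set binds, were not ranked against each other. Array medians lay between 5.20 and 5.31, and precision is limited by how many arrays there are. The tumours fell into 9 whose poly-A spike-in controls, transcripts added before labelling, gave a high signal (tumours 8 to 12 and 18 to 21, the spiked group) and 12 where they did not (the unspiked group). No label names these groups. RNA quality was read from the control probe sets of actin and GAPDH, as the signal at the 3′ end over that at the 5′ end of the transcript. This 3′ to 5′ contrast changed by 0.16 ± 0.41 (SD, n = 21), with a mean of 0.38 in the spiked group. It changed by more than 0.5 in size in tumours 10, 11, 13, 16, 20 and 21. As a rough check of the tissue label, since probe sets bind with different strength, the mean level of 10 sarcoma and fibroblast markers ran from 11.4 to 12.8 before treatment and that of 6 epithelial markers from 3.61 to 4.74.

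Before treatment, tumours differed little in most subunits: the SD over tumours had a median of 0.29 for the 63 genes and 0.33 for all named genes. The steadiest was UQCRH, the hinge protein that helps cytochrome c dock on complex III, with an SD of 0.14. The most variable were COX4I2 (SD 1.44), the form of subunit 4 found in lung and in hypoxic cells, and NDUFA4L2 (SD 1.25), a relative of NDUFA4 that is induced by hypoxia through HIF-1.

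The question of the paired comparison was what changed in a tumour between the first and the second sample. Respiratory chain genes moved little, and those that passed the test all rose. In the limma fit over 42924 probe sets, with the tumour as a block and Benjamini-Hochberg adjustment at 0.05, 7 of the 63 genes rose, which is 11.1%, beside 4.02% of all named genes. None of them fell by the probe set used (0 genes, also at an unadjusted p under 0.05 and by the Wilcoxon signed-rank test), beside 3.13% of all named genes. At an unadjusted p under 0.05, 19 genes were higher, or 30.2%, beside 12.1% of all named genes higher and 9.63% lower. Of the 61 other probe sets of these genes, 6 rose and 0 fell in limma after adjustment, and 5 were lower at an unadjusted p under 0.05, in NDUFS1, NDUFB5, NDUFAB1 and UQCRH. The lowest of these was a probe set of NDUFS1 with a change of -0.38 (limma, adjusted p = 0.0542). The mean change was above 0 for 51 genes and below 0 for 12, or 81.0% above 0 beside 53.1% of all named genes, and the median change was 0.06 on the log2 scale, beside 0.007. All 63 genes lay above the median level of all probe sets. In the limma fit of only the probe sets above it, 12.7% of the 63 rose beside 7.34% of the named genes fitted.

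The 7 genes that rose were NDUFS8, NDUFV3 and NDUFB6 of complex I, UQCR11 and UQCRC1 of complex III, COX8A of complex IV, and NDUFA4L2. In complex II 0 of 4 genes and in complex V 0 of 10 passed in limma, beside 4.02% of all named genes that rose. Sets this small can give 0 at that share, so these counts set neither complex apart. At an unadjusted p under 0.05 complex II had 0 genes and complex V had 4, all higher, beside 12.1% of all named genes higher. By the Wilcoxon test they had 0 and 2. In these bulk samples, a change in the number of cells of a type and a change in RNA per cell cannot be told apart.

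**Figure D1:**
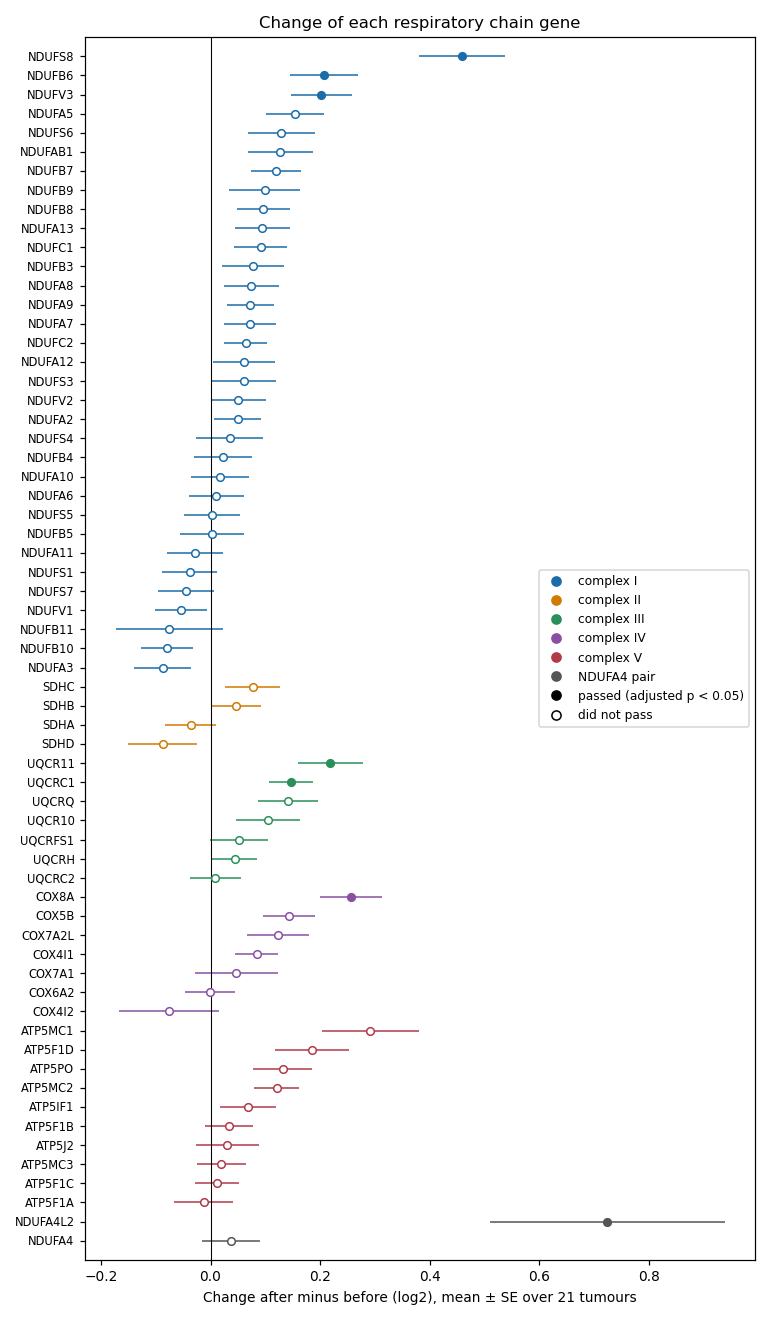
Mean change after minus before (log2, horizontal axis) of each of the 63 respiratory chain genes over 21 tumours, by complex, with bars of ± 1 SE; filled points passed the test. The 7 filled points all lie above 0, from UQCRC1 at 0.15 to NDUFA4L2 at 0.72, and most open points lie between -0.1 and 0.2.

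Complex I, the NADH dehydrogenase, has a matrix arm that oxidises NADH and a membrane arm that pumps protons. NDUFS8 carries iron-sulphur clusters close to where coenzyme Q is reduced. Its level ran from 8.95 to 10.04 before treatment with a median of 9.44, and from 9.11 to 10.5 afterwards with a median of 9.88. The ranges overlapped, but 18 of 21 tumours were higher in their second sample, and the 3 others changed by less than 0.02 in size. The mean change was 0.46 ± 0.08 (SE, n = 21; limma, adjusted p = 0.00159), the highest of the 61 genes other than the NDUFA4 pair. NDUFS8 has 1 probe set, of a kind that can bind related transcripts, so no other probe set could be compared. The change was largest in tumour 10 at 1.42, from 9.04 to 10.5, and tumours 9 and 21 followed with 1.002 and 0.93.

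NDUFV3, a small accessory subunit beside the site where NADH is oxidised, ran from 7.06 through a median of 7.62 to 8.23 before treatment and from 7.13 through 7.89 to 8.41 afterwards. The ranges nearly coincided, and the shift was seen within tumours, with 16 of 21 higher. Its mean change was 0.20 ± 0.06 (limma, adjusted p = 0.0310), and its other probe set also rose, by 0.31 (limma, adjusted p = 0.0151). NDUFB6, an accessory subunit of the membrane arm, ran from 9.93 through 10.7 to 11.2 and then from 9.99 through 10.9 to 11.5. It was higher in 15 tumours, with a mean change of 0.21 ± 0.06 (limma, adjusted p = 0.0463). Of its 3 probe sets only the 1 used passed. Another changed by 0.20 (limma, adjusted p = 0.158), and 1 with a mean level of 6.87 changed by -0.06 (adjusted p = 0.668).

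The other 30 complex I genes did not pass. Closest were NDUFA5, an accessory subunit of the matrix arm (0.15, limma adjusted p = 0.0874), and NDUFB7 of the membrane arm (0.12, adjusted p = 0.128), each higher in 16 tumours. Core subunits stood on both sides of 0. NDUFS1, the large iron-sulphur subunit, changed by -0.04 (limma, adjusted p = 0.757), and NDUFV1, which binds NADH and FMN, by -0.05 (adjusted p = 0.602). NDUFS7, which like NDUFS8 carries an iron-sulphur cluster next to the coenzyme Q site, changed by -0.04 (limma, adjusted p = 0.719), with 8 tumours higher. Thus NDUFS8 rose while these neighbours in the electron path did not pass, and the difference between them was not tested.

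Single tumours stood apart in some subunits. NDUFB11, an accessory subunit of the membrane arm, was at 11.05 before treatment in tumour 12 and at 8.99 afterwards, a change of -2.06. The next highest tumour before treatment was at 9.35, and in the other 20 tumours the change lay between -0.19 and 0.41. NDUFA8, another accessory subunit, was highest in tumour 17 at 11.2, where the next tumour was at 10.6, and there it stayed high after treatment.

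Complex II was the only complex whose mean change was below 0.01 in size. SDHA binds FAD and oxidises succinate, SDHB carries the iron-sulphur clusters, and SDHC and SDHD anchor the enzyme in the membrane. SDHC changed by 0.08 ± 0.05 (SE; limma, adjusted p = 0.444) with 12 tumours higher, and SDHD by -0.09 ± 0.06 (adjusted p = 0.499) with 5 higher and 16 lower. Its sign was not stable: SDHD stood at -0.21 over the spiked tumours, at 0.006 over the unspiked ones, and at 0.01 once the RNA quality contrast was fitted as well. SDHB and SDHA changed by 0.05 and -0.04.

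In complex III, which passes electrons from coenzyme Q to cytochrome c, all 7 genes had a mean change above 0 and 2 rose. UQCR11, a small membrane subunit, ran from 8.99 through a median of 9.48 to 10.03 before treatment and from 9.28 through 9.66 to 10.5 afterwards. It was higher in 17 of 21 tumours, lowest in change in tumour 6 (-0.38) and highest in tumour 15 (0.61). The mean change was 0.22 ± 0.06 (SE; limma, adjusted p = 0.0288), and 3 of its 6 probe sets passed. UQCRC1, a core protein on the matrix side, ran from 9.94 through 10.4 to 10.9 and then from 10.05 through 10.6 to 11.1. It was higher in 16 tumours, by a mean of 0.15 ± 0.04 (limma, adjusted p = 0.0295), the smallest change among the 7 genes that rose. Its other probe set, at 0.13, did not pass (limma, adjusted p = 0.109). UQCRQ and UQCR10, both small membrane subunits, changed by 0.14 (limma, adjusted p = 0.137) and 0.10 (adjusted p = 0.347), and UQCRC2, the partner core protein of UQCRC1, by 0.008 (adjusted p = 0.954).

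Complex IV, cytochrome c oxidase, had 1 gene that rose. COX8A, a small membrane subunit found in most tissues, ran from 9.63 through a median of 10.1 to 10.96 before treatment and from 9.70 through 10.4 to 11.1 afterwards. It was higher in 18 of 21 tumours and in all 9 of the spiked group, with the highest change in tumour 10 (0.78) and the lowest in tumour 6 (-0.24). The mean change was 0.26 ± 0.06 (SE; limma, adjusted p = 0.00833), 1.19-fold, and all 4 of its probe sets passed, with changes from 0.23 to 0.28. COX5B, a subunit on the matrix side, was higher in 16 tumours by a mean of 0.14 ± 0.05 and did not pass (limma, adjusted p = 0.0759). COX4I1, the common form of subunit 4, had the least variable change over tumours of all 63 genes (SD 0.15) and changed by 0.08 ± 0.04 (limma, adjusted p = 0.232).

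The tissue-restricted complex IV genes did not pass. COX7A1, the heart and muscle form of subunit 7A, changed by 0.05 ± 0.08 (SE; limma, adjusted p = 0.811), and COX6A2 by -0.001 ± 0.05 (adjusted p = 0.993). COX4I2 ran from 5.23 through 5.85 to 11.4 before treatment, where the high value was tumour 4 alone and the next was tumour 13 at 8.34. Tumour 4 was still highest afterwards at 10.6, and the mean change was -0.08 ± 0.09 (limma, adjusted p = 0.733). The 12 skeletal muscle markers measured had a mean level with a median of 4.61 before treatment (4.39 to 4.95), and 0 of them passed in limma, 0 at an unadjusted p under 0.05 and 0 by the Wilcoxon test.

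**Figure D2:**
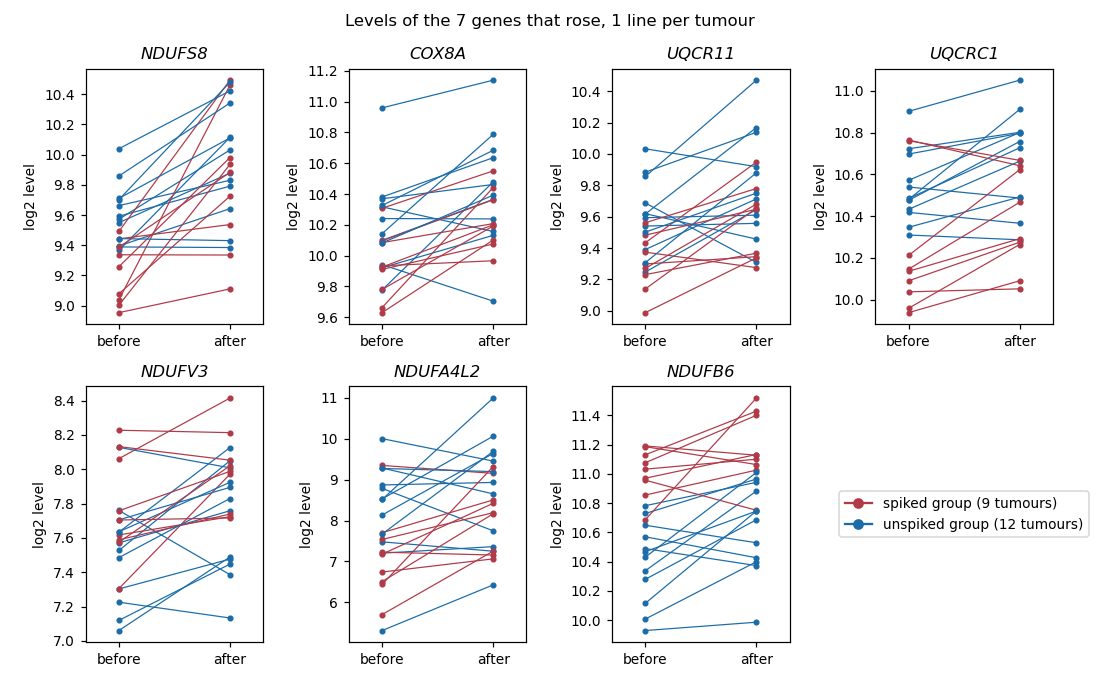
Level before and after treatment (log2, vertical axis, a separate scale in each panel) of the 7 respiratory chain genes that rose, 1 line per tumour, coloured by spike-in group. The ranges before and after overlap in every panel, and NDUFS8 and COX8A are each higher in 18 of 21 tumours.

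In complex V, ATP synthase, 9 of 10 genes had a mean change above 0 and none passed in limma. Closest was ATP5MC1, which encodes the c subunit of the rotating membrane ring. It ran from 9.22 through 9.92 to 11.05 before treatment and from 9.19 through 10.1 to 11.3 afterwards, and 16 tumours were higher. The mean change was 0.29 ± 0.09 (SE; limma, adjusted p = 0.0508), from -0.73 in tumour 6 to 1.32 in tumour 3, and it passed in 3 of the 21 fits that left out a tumour. ATP5MC2 and ATP5MC3 encode the same mature c subunit with other import sequences. ATP5MC2 changed by 0.12 ± 0.04 (limma, adjusted p = 0.0868; 17 tumours higher) and ATP5MC3 by 0.02 (adjusted p = 0.876; 9 higher), and the difference between the 3 genes was not tested.

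ATP5F1D, the delta subunit of the central stalk, changed by 0.19 ± 0.07 (SE; limma, adjusted p = 0.110), and ATP5PO, which joins the peripheral stalk to the catalytic head, by 0.13 (adjusted p = 0.161). ATP5F1C, the gamma subunit of the same central stalk, stood at 0.01, and the subunits of the catalytic head stood at -0.01 (ATP5F1A, alpha) and 0.03 (ATP5F1B, beta). The inhibitor ATP5IF1 changed by 0.07 (limma, adjusted p = 0.516).

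NDUFA4L2 had the largest mean change of the 63 genes and the widest spread. It ran from 5.31 through a median of 7.67 to 10.004 before treatment and from 6.42 through 8.50 to 10.997 afterwards. The second sample was higher by 2.88 in tumour 21, by 2.48 in tumour 13 and by 2.02 in tumour 14, while 7 tumours were lower, the lowest being tumour 6 at -1.04. The mean change was 0.72 ± 0.21 (SE; limma, adjusted p = 0.0444), 1.65-fold, with an SD of 1.08 and 14 tumours higher. NDUFA4, which is a subunit of the working enzyme, changed by 0.04 ± 0.05 (limma, adjusted p = 0.775).

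Of 7 pairs of subunit forms listed, both genes were measured for 2, and the change of the restricted form was set against that of the common form within each tumour. NDUFA4L2 changed by 0.69 ± 1.002 more than NDUFA4 (SD, n = 21), in 14 of 21 tumours (two-sided sign-flip permutation p = 0.00524, adjusted over the 2 pairs 0.0105). NDUFA4L2 had already been tested in the fit above, so this is no separate evidence of its rise. In the unspiked group alone the difference was 0.52 (exact sign-flip permutation, adjusted p = 0.259), and with the 6 tumours of strongly changed 3′ to 5′ contrast left out it was 0.47 (permutation, adjusted p = 0.158). COX4I2 changed by -0.16 ± 0.45 against COX4I1 (SD; permutation p = 0.122, adjusted 0.122), with 9 tumours higher.

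The complexes were then compared within tumours by the mean change of their genes, as a description with no test. The mean over tumours was 0.06 ± 0.16 for complex I (SD, n = 21; 12 tumours above 0), -4.5e-05 ± 0.17 for complex II (9 tumours), 0.10 ± 0.17 for complex III (15 tumours), 0.08 ± 0.11 for complex IV (17 tumours) and 0.09 ± 0.18 for complex V (15 tumours). All SDs exceeded the means. Complexes I and III moved closely together, with a difference of -0.04 ± 0.06, as did I and V (-0.03 ± 0.06) and III and V (0.01 ± 0.07). Complex II differed more from the others and more variably: I exceeded it by 0.06 ± 0.14 in 14 tumours, and it lay below III by -0.10 ± 0.17, below IV by -0.08 ± 0.17 and below V by -0.09 ± 0.14. Complex II has only 4 genes, and a mean of few genes varies more. Its wider spread can therefore not be told apart from its small number of genes. Complex IV differed from V by -0.006 ± 0.13. Without COX4I2, COX6A2 and COX7A1, the mean of complex IV was 0.15. These are the complex IV genes with the lowest mean changes, and no other complex was trimmed, so 0.15 is not comparable with the other means.

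The mean change of the 63 genes differed widely between tumours. In tumour 15, 61 of 63 genes were higher after treatment, with a mean change of 0.49, and the 2 lower ones were COX6A2 and NDUFA4L2. In tumour 10, 55 genes were higher with a mean of 0.34, in tumour 20 also 55 (0.19), in tumour 13 54 (0.25) and in tumour 21 53 (0.22). At the other end, 51 genes were lower in tumour 6 (mean -0.16), 49 in tumour 19 (-0.05) and 47 in tumour 14 (-0.02). The median change of all named genes was 0.05 in tumour 15 and 0.01 in tumour 10. Without tumours 10 and 15 the mean was 0.02 for complex I, -0.02 for II, 0.07 for III, 0.06 for IV and 0.05 for V.

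Within a tumour the complexes did not always go together. In tumour 10 complex II stood at -0.04 while I, III and V stood at 0.37, 0.36 and 0.39. In tumour 13 complex IV stood at -0.05 while II and V stood at 0.35 and 0.32. NDUFA4L2 followed the others poorly: its change was 2.02 in tumour 14, where most of the 63 genes were lower, and changed by -0.08 in tumour 15, where nearly all were higher.

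**Figure D3:**
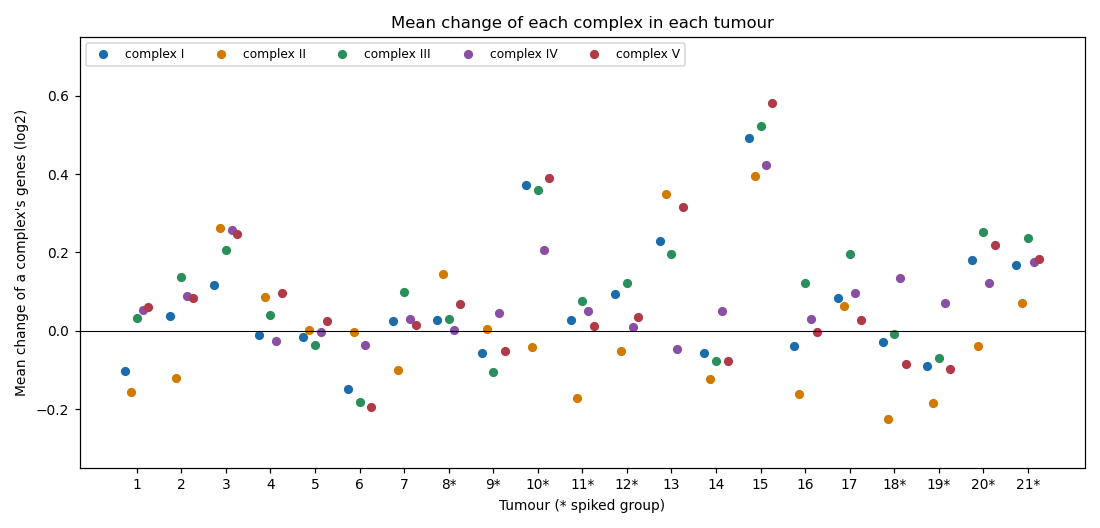
Mean change (log2, vertical axis) of the genes of complexes I to V in each of the 21 tumours (horizontal axis, * marks the spiked group). Tumour 15 lies highest, with all 5 complexes between 0.40 and 0.58. Complexes I, III and V stay close together in most tumours while complex II, a mean of only 4 genes, departs from them.

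**Figure D4:**
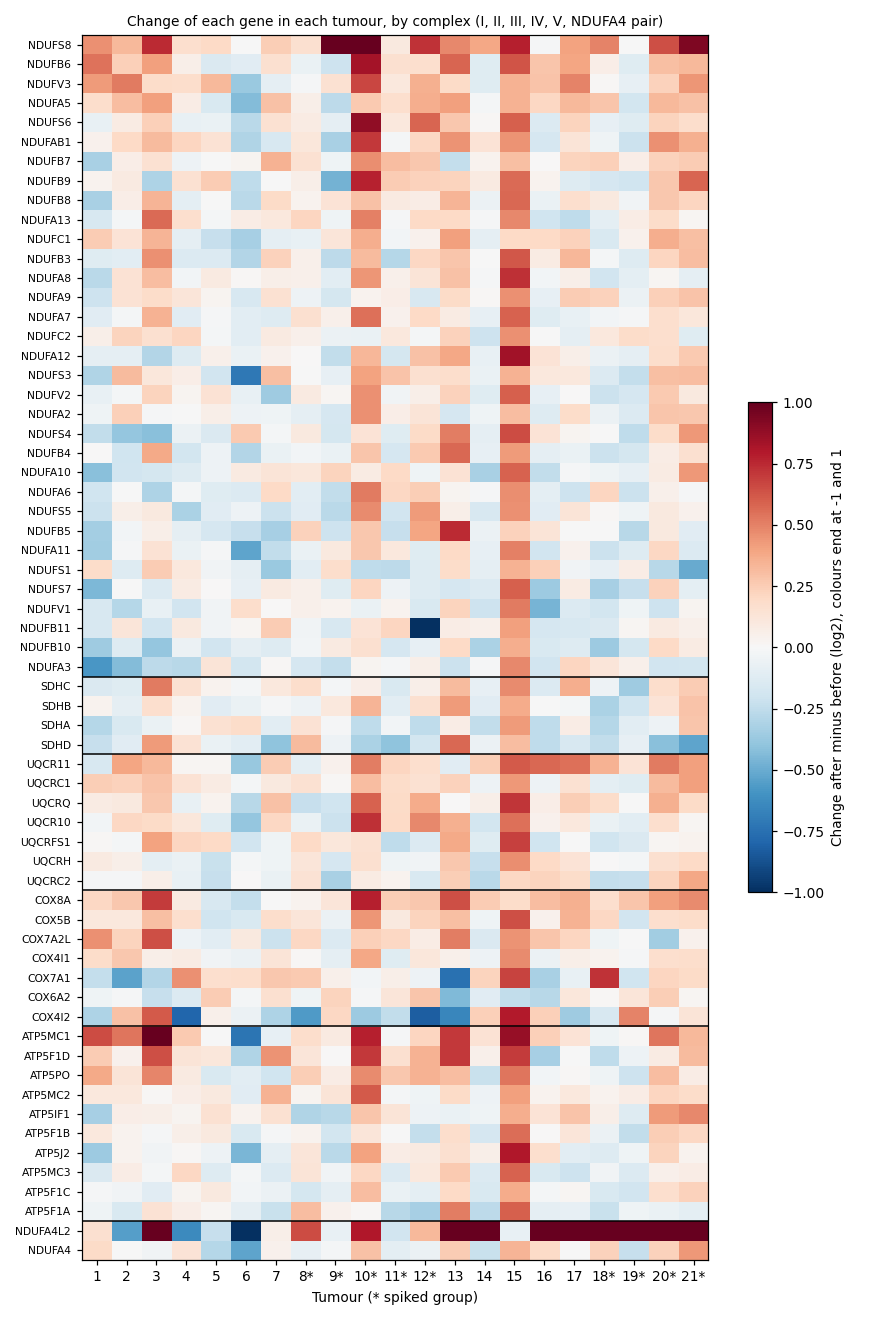
Change after minus before (log2, colour, red higher and blue lower, ending at -1 and 1) of each of the 63 genes (rows, by complex) in each tumour (columns, * marks the spiked group). Tumours 10, 13, 15, 20 and 21 are red over most rows, tumour 6 is mostly blue, and NDUFA4L2, COX4I2, COX7A1 and COX6A2 show patterns of their own.

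Over the 21 tumours the changes of pairs of subunits correlated, as a description of points that share the same arrays. The median Pearson r was 0.46 over 622 pairs within a complex and 0.42 over 1331 pairs from different complexes, beside 0.003 over pairs of all named genes. Complex V had the highest median within it (0.52) and complex IV the lowest (0.11). The complex IV genes measured include the tissue-restricted COX4I2, COX6A2 and COX7A1, while the common forms COX6A1 and COX7A2 were not among the 63. The value 0.11 therefore describes the genes measured here and not complex IV as a whole. NDUFAB1, the acyl carrier protein of mitochondria and a complex I subunit, had the highest median r with the other genes (0.61), followed by UQCR10 and NDUFS6 (both 0.59). COX6A2 had the lowest (-0.27), before NDUFS1 (0.001), COX7A1 (0.05), COX4I2 (0.06) and NDUFB11 (0.06). Without tumours 10 and 15 both medians were 0.26.

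The calls depended on single tumours. NDUFS8 and COX8A passed in each of the 21 limma fits that left out 1 tumour, while UQCR11 and UQCRC1 lost the call in 5 of them, NDUFV3 in 8, NDUFA4L2 in 13 and NDUFB6 in 15. The number of genes that rose went from 7 to 2 without tumour 10, 20 or 21, to 3 without tumour 2 or 16, to 4 without tumour 1, 3, 12 or 17, and to 10 without tumour 6. None fell in any of them. The 2 genes are 3.17% of the 63, beside 2.83%, 2.89% and 2.83% of all named genes in the fits without tumours 10, 20 and 21, so there the share was close to that of all genes. With the tumour as a random block, whose estimated correlation was 0.58, limma called 5 of the 63, and NDUFA4L2 (adjusted p = 0.0634), NDUFB6 (0.0865) and UQCRC1 (0.0805) did not pass. By the Wilcoxon test NDUFA4L2 (exact, adjusted p = 0.126) and NDUFB6 (0.0648) did not pass.

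The spike-in groups gave like mean changes for the 63 genes, 0.09 in the spiked and 0.07 in the unspiked group. In the spiked group alone 2 genes rose, NDUFS8 (0.61; limma, adjusted p = 0.0340) and COX8A (0.31; adjusted p = 0.0459), beside 1.49% of named genes. In the unspiked group alone 0 of the 63 and 0 of all named genes passed in limma, with 8 of the 63 at an unadjusted p under 0.05, or 12.7% beside 13.1% of all named genes. NDUFS8 stood there at 0.35 (limma, adjusted p = 0.151) with 10 of 12 tumours higher. In limma's test of the difference between the groups 0 of the 63 genes passed, and 1, COX6A2, had an unadjusted p under 0.05 (limma, p = 0.0349), which is 1.59% beside 6.28% of all named genes.

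The 3′ to 5′ contrast changed by 0.51, 0.76 and 0.77 in tumours 10, 20 and 21, which were among the tumours with most genes higher. It changed as much in tumours 11 and 16 (0.77 and 0.58), where the 63 genes had mean changes of 0.02 and 0.01. In tumour 15 it changed by 0.04 and in tumour 13 by -0.84. Whether the contrast and the mean change of the 63 genes went together over the tumours was not tested. With the contrast as a covariate 2 genes rose, NDUFS8 (0.43; limma, adjusted p = 0.00843) and COX8A (0.25; adjusted p = 0.0321), beside 1.68% of all named genes. Without the 6 tumours in which it changed by more than 0.5, only NDUFS8 of the 63 rose (0.41; limma, adjusted p = 0.0214), beside 0.457% of all named genes, and COX8A stood at 0.17 (adjusted p = 0.209).

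Markers of other cells and of growth also moved between the samples. Of 9 proliferation genes 8 fell (mean level of the list 5.38 to 8.02 before and 4.60 to 7.60 after), of 8 T cell genes 4 fell (4.87 to 6.95, then 4.64 to 5.88), of 5 neutrophil genes 3 rose (4.76 to 9.498, then 4.69 to 8.83), and of 10 macrophage genes 1 rose and 1 fell. RMA levels have no zero, so no marker can be called absent. Tumour 15 had the highest T cell, neutrophil and red cell levels before treatment (6.95, 9.498 and 6.89), and these changed by -1.07, -0.67 and -1.27 there. The epithelial, proliferation and sarcoma lists changed by 1.02, 0.63 and 0.49 in tumour 15, the first and last being the highest values of the 21 tumours, while the proliferation list was higher in 2 tumours only, 13 and 15. In tumour 10 the sarcoma list changed by -1.08, the macrophage list by -0.82, the proliferation list by -0.83 and the neutrophil list by 0.99. The part of any of these in the changes of the 63 genes was not tested.

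Around the respiratory chain, 201 genes of 7 mitochondrial lists were measured, of which 14 rose and 0 fell in limma (3 had an unadjusted p under 0.05 and a lower level, and by the Wilcoxon test 0 fell). Of all named genes 4.02% rose and 3.13% fell. Most genes of each list lay above the median level. In the fit of only the probe sets above it, 18 list genes rose, beside 7.34% of the named genes fitted. The list shares below come from the fit of all probe sets, to which 4.02% belongs and 7.34% does not. CYC1, a subunit of complex III whose symbol falls outside the rule, did not pass, with a change of 0.06 (limma, adjusted p = 0.716). CYCS, the carrier cytochrome c, changed by 0.32 ± 0.12 and did not pass either (SE; limma, adjusted p = 0.125). With the genes of coenzyme Q synthesis 0 of 14 passed, 3 at an unadjusted p under 0.05 and 0 by the Wilcoxon test. COQ10A, a coenzyme Q binding protein, changed by -0.09 (limma, adjusted p = 0.226).

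Of 39 assembly factors, proteins that build the complexes, 3 rose (7.69%), and the median change was 0.07. NDUFAF2, an assembly factor of complex I, changed by 0.47 ± 0.12 (SE; limma, adjusted p = 0.0233), with 17 tumours higher. UQCC3, needed to build complex III, changed by 0.27 ± 0.07 (limma, adjusted p = 0.0189), and FOXRED1, for complex I, by 0.23 ± 0.06 (adjusted p = 0.0300).

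Of 73 mitochondrial ribosomal protein genes 6 rose (8.22%), with a median change of 0.08. MRPS16 of the small subunit changed by 0.36 ± 0.08 (limma, adjusted p = 0.0131) and MRPL55 of the large subunit by 0.31 ± 0.07 (adjusted p = 0.00713), and MRPL35, MRPL41, MRPS5 and MRPS36 also rose. Of 32 import and carrier genes 3 rose (9.38%), with a median change of 0.12. They were SLC25A5, an ADP/ATP carrier that exports the product of ATP synthase (0.28 ± 0.08; limma, adjusted p = 0.0267), TIMM50, a receptor of the inner membrane import channel (0.20 ± 0.05; adjusted p = 0.0238), and TOMM40L, a relative of the outer membrane import pore (0.22; adjusted p = 0.0286).

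Of 7 genes of a mixed list, uncoupling proteins together with other mitochondrial proteins, 2 rose (28.6%), and only UCP2 of them is an uncoupling protein by name. UCP2, an inner membrane carrier related to the uncoupling protein of brown fat, ran from 7.59 through 9.39 to 10.8 before treatment and from 7.91 through 9.92 to 11.2 afterwards, and was higher in 19 of 21 tumours. Its mean change was 0.60 ± 0.12 (SE; limma, adjusted p = 0.00489), higher than that of any respiratory chain gene but NDUFA4L2. LONP1, a protease of the mitochondrial matrix, was higher in 20 tumours by a mean of 0.21 ± 0.05 (limma, adjusted p = 0.0135).

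The enzymes of the citric acid cycle and pyruvate dehydrogenase and the regulators of mitochondrial biogenesis did not pass in limma, 0 of 21 and 0 of 16, with 3 and 1 at an unadjusted p under 0.05 and 0 by the Wilcoxon test in both. IDH3B, a subunit of isocitrate dehydrogenase, changed by 0.12 (limma, adjusted p = 0.179) and PDK3, a kinase that switches pyruvate dehydrogenase off, by 0.14 (adjusted p = 0.163). Among the regulators, the coactivators PPARGC1A and PPARGC1B changed by 0.03 and -0.04. The transcription factors NRF1 and ESRRA changed by -0.03 and -0.01, and GABPB1, a subunit of the factor GABP, by 0.16. TFAM, which packs mitochondrial DNA, changed by -0.13 (limma, adjusted p = 0.446) and POLRMT, the mitochondrial RNA polymerase, by 0.10 (adjusted p = 0.228). In tumours 15 and 10, where the respiratory chain genes had mean changes of 0.49 and 0.34, the ribosomal list had mean changes of 0.42 and 0.43 and the import list of 0.47 and 0.43, whereas the citric acid cycle list had 0.24 and -0.02.

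**Figure D5:**
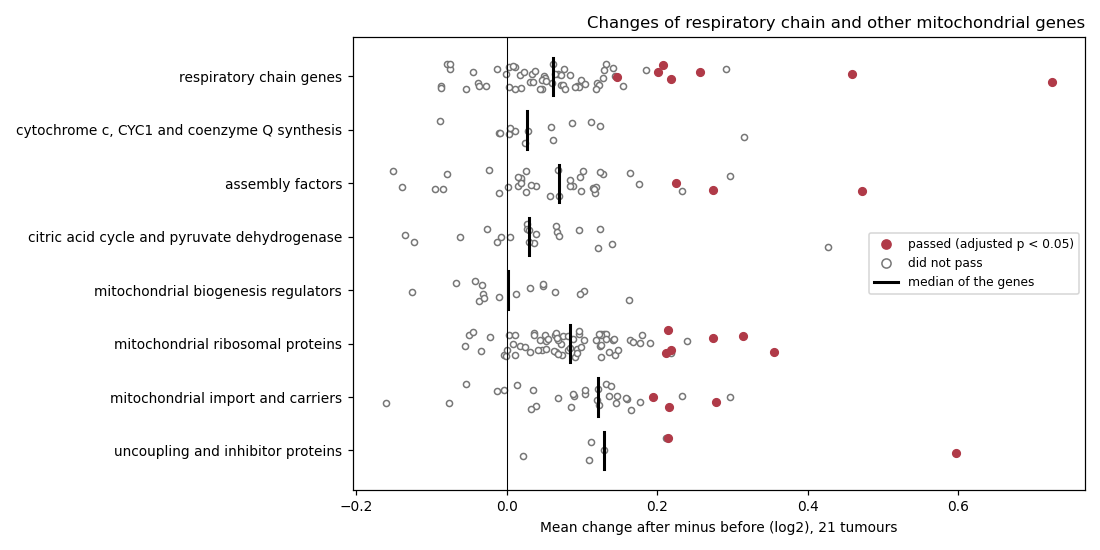
Mean change after minus before (log2, horizontal axis) over 21 tumours of the 63 respiratory chain genes and of the genes of 7 mitochondrial lists, 1 point per gene, filled where the gene passed, with a bar at the median. All filled points lie above 0, NDUFA4L2 (0.72) and UCP2 (0.60) lie farthest right, and the median lies at 0.06 for the respiratory chain and at 0.001 for the regulators.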

How the data were processed

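RNA of 21 canine sarcomas, sampled before and again after hyperthermia, was measured on Affymetrix arrays. The submitters' processing notes name RMA and Affymetrix Expression Console, and the deposited values are log2 levels (2.13 to 14.6). A build or version is not given in the sources used here. Of 43035 rows, 111 controls were left out. Of the 42924 probe sets tested, 29254 have 1 gene symbol in the platform annotation, 439 several and 13231 none. A gene took the probe set with that symbol alone and the highest mean over all arrays. The 63 genes have 124 probe sets. Of the probe sets used, 35 end in _s_at or _x_at and can bind related transcripts. A current gene table matched 61 of the 63 and changed no symbol.

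Arrays were paired by the tumour code in their titles. As a check, both arrays of all 21 pairs matched each other best after removal of group means (lowest pair r 0.44). limma 3.58.1 in R 4.3.3 fitted treatment with the tumour as a block, with eBayes, two-sided and Benjamini-Hochberg adjusted over all probe sets at 0.05, and was tested on simulated data. Pairs of forms were tested with 100000 sign flips, or all flips for 12 or fewer tumours. Other steps ran in Python 3.11.15 with pandas 2.3.3, SciPy 1.17.1 and NumPy 2.4.6, and figures were drawn with Matplotlib 3.10.9. Spike-in groups were split at the widest gap of the tumours' mean poly-A level.

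Members, lists and tests were chosen with earlier results of these data known. Genes were named by a rule: those that passed, per complex the 2 lowest p-values and the 2 biggest changes, the pairs, some fixed regulators, per list the 2 lowest p-values, and the most and least variable. Others were named after their values were seen. Promoter and protein sequences were not analysed here. The alternatives were array weights, the tumour as a random effect or left out of the model, robust shrinkage with a trend, only probe sets above the median level, quantile normalisation, centring, the RNA quality covariate, the Wilcoxon test, adjustment over 1 probe set per gene, other probe sets of a gene, each spike-in group, and leaving out tumours.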

Additional observations from a re-analysis of the deposited data

How the results depend on the processing

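The paired design carried most of the calls: with no replicate block 0 of the 63 genes and 0 list genes rose, beside 12 of all named genes. With the contrast of 3′ to 5′ control signals as a covariate 2 of the 63 and 5 list genes rose, in the spiked group alone 2 and 1, in the unspiked group alone 0 and 0, and without the 6 tumours with a changed contrast 1 and 1. Of all named genes 1.68%, 1.49%, 0% and 0.457% rose in these fits, in the same order. Leaving out each tumour gave 2 to 10 of the 63 and 10 to 20 list genes, beside 2.83% to 4.91% of all named genes. Without _s_at and _x_at probe sets only 40 of the 63 could be measured, NDUFS8 not among them, and 6 rose and 0 fell. The 6 are 9.52% of all 63, beside 2.91% of all named genes, both shares counted over genes measured there or not. In the other alternatives 3.14% to 4.58% of all named genes rose, or 7.34% of those fitted where only probe sets above the median level were used. These alternatives gave 5 to 10 of the 63, the most after renewed quantile normalisation, and none gave a gene that fell. Among these NDUFB6 lost its call with a random block, array weights, centring, the Wilcoxon test and the mean of its probe sets, NDUFA4L2 with a random block, trend and robust shrinkage and the Wilcoxon test, and UQCRC1 with a random block and the probe set of largest SD. Of the lists, 1 gene fell with the mean of a gene's probe sets and 1 with the probe set of largest SD. The difference between NDUFA4L2 and NDUFA4 did not pass in the unspiked group (0.52) and without the 6 tumours (0.47). Some small changes turned sign. COX6A2 gave 0.047 with array weights, 0.11 in the spiked group, 0.021 without the 6 tumours, 0.024 with the mean of probe sets, 0.049 with the probe set of largest SD and without _s_at and _x_at probe sets, and -0.015 to 0.021 leaving out tumours. ESRRA gave 0.026 with array weights, 0.091 in the spiked group and -0.030 to 0.015 leaving out tumours. COX7A1 (-0.020), PPARGC1A (-0.022) and SDHD (0.0055) turned in the unspiked group, SDHD also with the covariate (0.0099), NDUFA4 without the 6 tumours (-0.034) and NDUFB6 with the probe set of largest SD (-0.065). The causes were not tested. The alternatives without ATP5IF1 and COX7A2L and without tumours 10 and 15 were chosen after seeing the data. So was the mean of complex IV without COX4I2, COX6A2 and COX7A1. The number of arrays and the small size of the changes limit which genes can pass.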
